A study of Mus musculus with 6 samples.

Results

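The clustered protocadherins were followed in mouse cortical neurons depolarized with potassium chloride (KCl). The members are the genes whose mouse symbol is Pcdha, Pcdhac, Pcdhb, Pcdhga, Pcdhgb or Pcdhgc followed by a number. The symbols gave 58 genes of the 43432 in the deposited tables, with 14 in the alpha cluster, 22 in the beta cluster and 22 in the gamma cluster. All 58 were above 3 expected counts in each of the 6 libraries, so none was left out of the test.

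Protocadherins of these clusters are cell adhesion proteins with extracellular cadherin repeats that bind like molecules on another membrane. Each neuron is known to choose its own small set of the alternate isoforms by promoter choice, which involves DNA methylation, CTCF and cohesin, and the resulting combination lets a neurite recognise branches of its own cell. The alpha and gamma genes are variable first exons spliced to constant exons that all isoforms of a cluster share, whereas a beta gene is mostly a single exon. The last isoforms of the alpha and gamma clusters, called C-type (Pcdhac1, Pcdhac2, Pcdhgc3, Pcdhgc4 and Pcdhgc5), differ from the alternate ones in being used more uniformly among neurons of a type. In a culture of many cells the level of an isoform is a sum over cells, and fewer cells of a type and less RNA per cell cannot be told apart.

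The neurons came from the cortex of wild-type C57BL/6 embryos at E16.5, labelled as a pool of male and female. After a week in culture, during which activity was blocked overnight by 1 µM TTX (tetrodotoxin, which blocks sodium channels) and 100 µM DL-AP5 (which blocks NMDA receptors), the cells were depolarized in 55 mM KCl and collected at 2 h or 6 h, or at 0 h without it. Each time point had 2 replicates, and every group shares the silencing. The study's methods call them biological replicates, the labels do not say whether they were separate cultures, and p-values measure the spread between these libraries only. The libraries held 25959298 to 28573067 expected counts over all genes. The sum of 6 neuron markers in TPM (a level per transcript length, as a share of all transcripts) was 5590 and 5503 at 0 h, above the 5058 to 5225 of the later libraries. At 6 h against 0 h Tubb3 of that list fell past 2-fold (-1.01) and Map2, Snap25, Syt1 and Stmn2 rose. The sum of 6 astrocyte markers was 511 and 551 TPM at 0 h, then 505 and 505 TPM at 2 h, then 424 and 413 TPM at 6 h. Gfap, Aldh1l1 and Gja1 of that list fell at 6 h against 0 h (log2 fold changes -0.63, -0.41 and -0.40). Their part in the protocadherin values was not tested. Sums of 5 microglia markers (1.93 to 4.34 TPM) and 4 vascular markers (2.05 to 3.11 TPM) were near 0. At those levels 1 microglia marker rose past 2-fold at 6 h against 0 h, and also 1 against 2 h. Of the vascular markers 1 rose past 2-fold at 2 h against 0 h, and 1 rose and 1 fell at 6 h. Sums of 5 oligodendrocyte lineage markers and 5 progenitor markers were 72.1 to 119 TPM and 108 to 131 TPM. Sox10 of the oligodendrocyte lineage fell at 2 h against 0 h and rose with Olig1 and Mbp at 6 h against 2 h, while of the progenitor markers Nes (past 2-fold) and Pax6 rose and Top2a fell at 6 h against 0 h.

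All 58 genes lie on the plus strand of chromosome 18 (GRCm38). The alpha cluster spans bases 36930184 to 37187661, the beta cluster 37264938 to 37524479 and the gamma cluster 37661793 to 37841873. The 22 gamma genes share constant exons, 2119 bases in the full-length Pcdhgc3, Pcdhgc4 and Pcdhgc5 transcripts, and Pcdhac1 and Pcdhac2 carry 2860 bases after their first exon. Shared exons made up 38% to 54.9% of the exon bases of an alpha gene, 27.8% to 66.8% of those of a gamma gene and at most 9.67% of those of a beta gene. RSEM divides a read that fits several genes among them, so its expected counts need not be whole. All 14 alpha and all 22 gamma members had a count that differed by more than 0.01 from a whole number in at least 1 library, against 4 of 22 beta members (Pcdhb12, Pcdhb14, Pcdhb21 and Pcdhb22), of which Pcdhb21 and Pcdhb22 overlap by 455 exon bases. The count of an alpha or gamma isoform is therefore partly an estimate, and a change in 1 isoform can move reads assigned to its neighbours. A pair of gene IDs carried the symbol Pcdha11 in the annotation, and the copy that starts 117 bases from the RefSeq start of Pcdha10 is called Pcdha10 here.

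The gamma cluster was the most abundant in TPM. Its summed level was 407 and 416 TPM at 0 h, then 390 and 471 TPM at 2 h, then 399 and 396 TPM at 6 h. The alpha sum was 142 and 136 TPM at 0 h, then 144 and 132 TPM at 2 h, then 138 and 142 TPM at 6 h. The beta sum was 111 and 105 TPM at 0 h, then 99.6 and 89.5 TPM at 2 h, then 106 and 115 TPM at 6 h. In TPM the groups overlapped in the alpha sum at all times and in the gamma sum between 2 h and each other time, while both 2 h beta values were below those at 0 h and 6 h. On the scale of normalized counts, which divides by the size factors of the libraries, the order differed. There the alpha and gamma sums at 2 h and 6 h lay above those at 0 h (gamma 24532 and 24930 at 0 h, 26311 and 26137 at 6 h), and the beta sums at 0 h and 2 h overlapped. The levels of single members ran from under 1 TPM on average (3 members: Pcdha8, Pcdhb1 and Pcdhgb8) to over 10 TPM (18 members).

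A few isoforms carried much of each cluster. The 3 most abundant alpha members, Pcdhac2, Pcdha4 and Pcdha6, held 50.9% of the alpha TPM on average at 0 h, 48.8% at 2 h and then 53.3% at 6 h. In the gamma cluster Pcdhgc4, Pcdhgc3 and Pcdhga11 held 48.1% of the gamma TPM on average at 0 h, then 51.0% and then 56.1% by 6 h. The beta cluster was spread more evenly, and the 3 most abundant members of each library held 27.8% at 0 h, 30.1% at 2 h and then 27.5% at 6 h. These were Pcdhb9, Pcdhb20 and Pcdhb7, except in replicate 2 at 2 h, where Pcdhb5 (8.21%) stood above Pcdhb20 (7.43%). These percentages are taken within a library and do not depend on how libraries are scaled. They do depend on the length by which TPM is divided, and for Pcdhgc4 RSEM gave 3704 and 3728 bases at 0 h and 3015 and 3117 bases at 6 h.

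**Figure D1:**
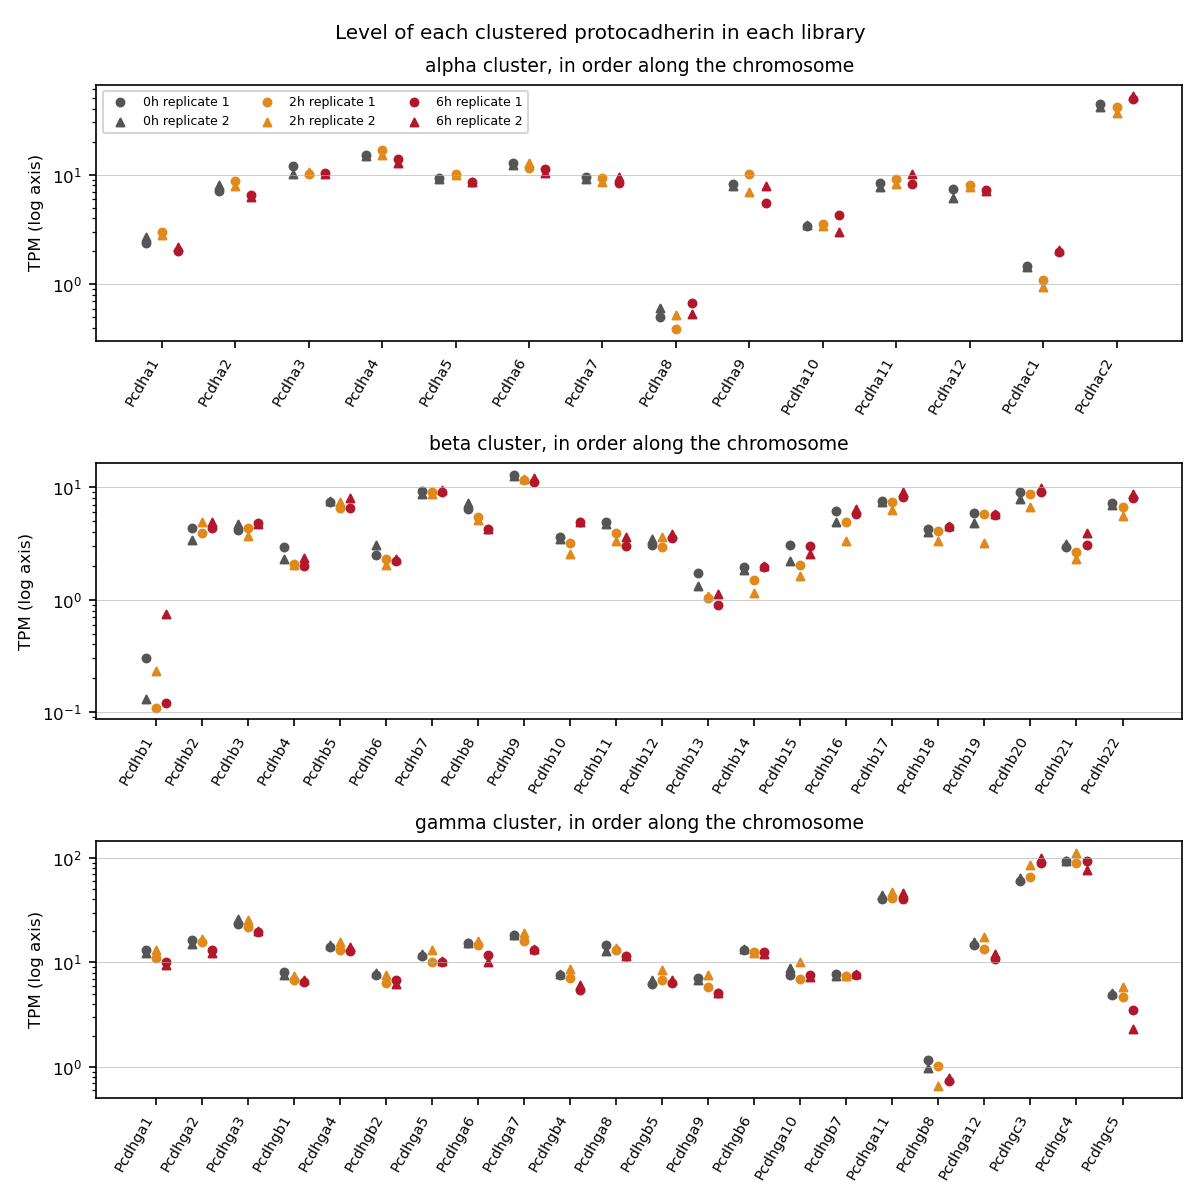
TPM (log axis) of each of the 58 members in each library, 1 panel per cluster, in order along the chromosome; circles are replicate 1 and triangles replicate 2, with grey for 0 h, orange for 2 h and red for 6 h. The C-type isoforms Pcdhac2, Pcdhgc3 and Pcdhgc4 and the alternate isoform Pcdhga11 stand above the other members of their clusters, and Pcdhb1 is the lowest member at 0.11 to 0.74 TPM.

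Depolarization moved the clustered protocadherins little. The comparison asked which members differed between time points, with DESeq2 on rounded expected counts over all genes, and a call needed an adjusted p no higher than 0.05 and more than a 2-fold change. None of the 58 members was called at 2 h against 0 h, at 6 h against 0 h or at 6 h against 2 h. Over all genes tested 9.55%, 19.3% and 18.1% were called in these 3 comparisons, with 3.62%, 9.1% and 10.1% higher and 5.94%, 10.2% and 8.02% lower. edgeR's quasi-likelihood test also called 0 members in each. The numbers of the 58 members at an unadjusted p under 0.05 with DESeq2 were 6, 9 and 21. Over all genes tested 26.5%, 45.3% and 45.3% passed the stricter adjusted p of 0.05.

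The precision was enough to bound most of these differences. The 95% Wald interval of the log2 fold change lay within 2-fold in either direction for 55 of 58 members (94.8%) at 2 h against 0 h, beside 55.6% of all genes tested, many of which have lower counts. The number was 50 of 58 members (86.2%) both at 6 h against 0 h, beside 42.2% of all genes, and at 6 h against 2 h, beside 44.3%. The members whose 6 h interval reached past 2-fold were Pcdha8, Pcdhac1, Pcdhb1, Pcdhb10, Pcdhb13, Pcdhgb8, Pcdhgc3 and Pcdhgc5. Of these Pcdhb1 had between 3.99 and 26.9 normalized counts in a library, and its log2 difference of 1.16 ± 1.12 (SE) at 6 h rested on 1 library.

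Without the fold threshold, 1 member passed an adjusted p of 0.05 at 2 h against 0 h, which is 1.72% of the 58 beside 26.5% of all genes tested (12.3% higher and 14.2% lower). By 6 h 7 members differed from 0 h (12.1%, beside 45.3%), with 6 higher and 1 lower, where 23.7% of all genes were higher and 21.7% lower. From 2 h to 6 h 14 members passed (24.1%, beside 45.3%), with 5 higher and 9 lower, where 24.1% of all genes were higher and 21.2% lower. The median log2 fold change of the 58 members was 0.12, 0.07 and -0.03 in these comparisons, and that of all genes tested was 0.02, 0.00 and -0.01. Without replicate 2 at 2 h the first of the member medians was 0.05, and the last ranged from -0.08 (without replicate 2 at 6 h) to -0.0019 (without replicate 2 at 2 h). When library totals replaced the size factors, the median over genes whose mean count reached 10 moved to -0.16, -0.25 and -0.08, and the member medians became -0.05, -0.17 and -0.11. Under that scaling the 6 h against 0 h split turned from 6 higher and 1 lower to 1 higher and 12 lower, while the member medians moved by about as much as the median of all genes.

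**Figure D2:**
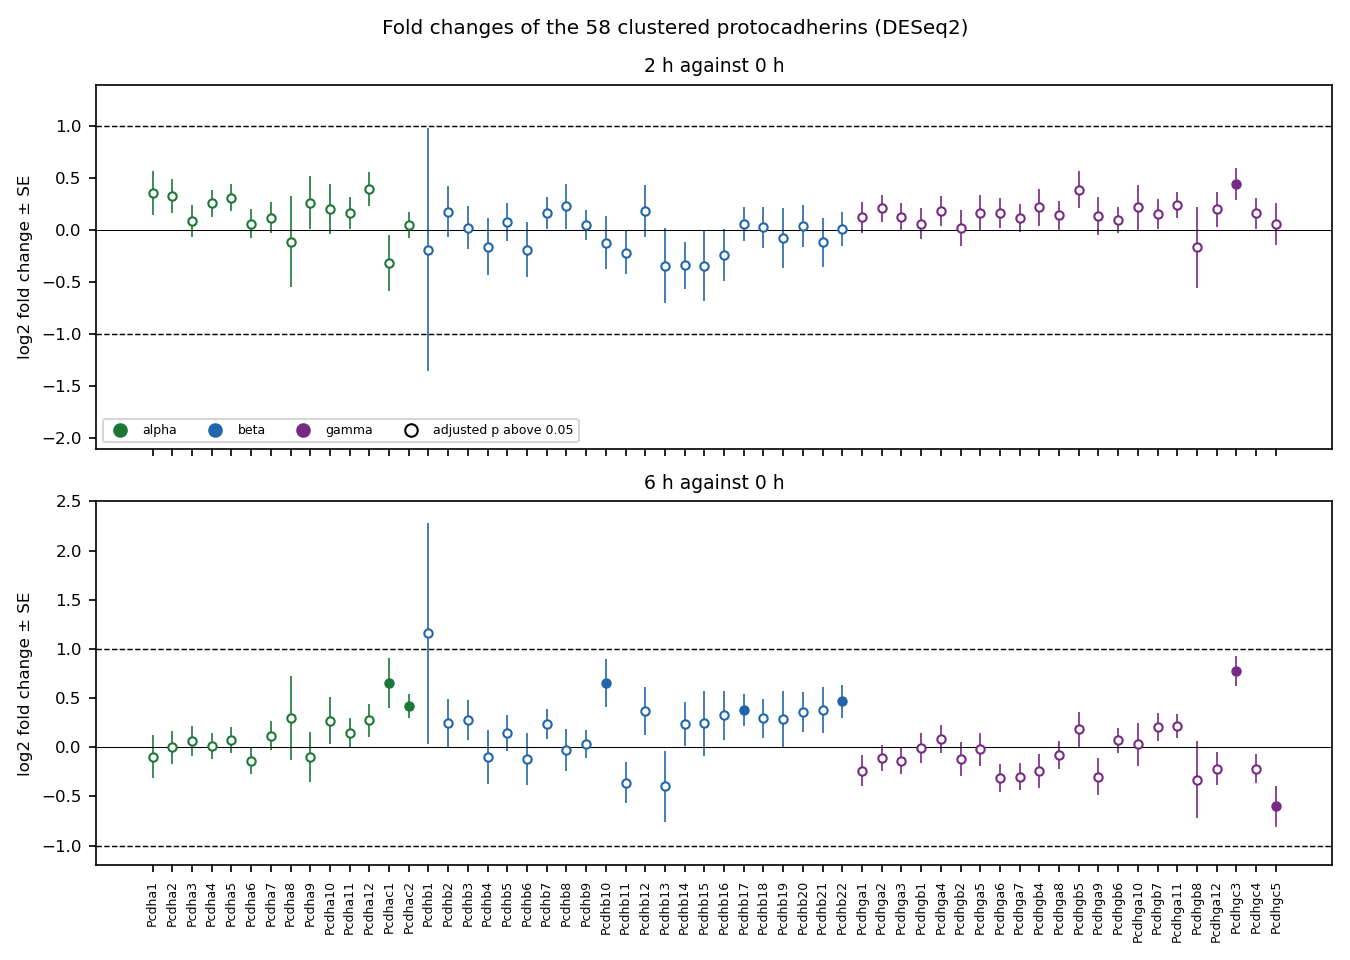
DESeq2 log2 fold change with its SE for each member at 2 h and 6 h against 0 h, in order along the chromosome and coloured by cluster; filled points passed an adjusted p of 0.05 and the dashed lines mark a 2-fold change. The only filled point at 2 h is Pcdhgc3, and the point beyond the line at 6 h is Pcdhb1. The 7 filled points at 6 h include 4 of the 5 C-type isoforms (3 higher, 1 lower), where 45.3% of all genes tested passed.

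Over all genes tested 45.3% passed an adjusted p of 0.05 at 6 h against 0 h, 23.7% higher and 21.7% lower. Of the 5 C-type isoforms 4 passed there, 3 higher and 1 lower, among the 7 members that did. Pcdhgc3 (chromosome 18, 37806364 to 37841873), an isoform known to act on dendrite branching and on Wnt signalling through Axin1, had the largest difference of the C-type isoforms in that comparison. Its normalized counts, which are expected counts divided by the library's size factor, were 3776 and 3989 at 0 h, then 4620 and 5952 at 2 h, then 6375 and 6903 at 6 h. The 3 groups did not overlap. Pcdhgc3 rose by a log2 fold change of 0.45 ± 0.15 (SE) at 2 h (adjusted p = 0.0177) and 0.77 ± 0.15 at 6 h against 0 h (adjusted p = 2.67e-06), while 6 h against 2 h gave 0.33 ± 0.15 (adjusted p = 0.0676), a value of 0.16 without replicate 1 at 2 h and 0.54 without replicate 2 at 2 h. The 6 h rise passed under all 14 alternatives run, which include leaving out each library in turn, with log2 fold changes of 0.53 to 0.91. The 2 h rise passed in 9 of 14, ranged from 0.23 (without replicate 2 at 2 h) to 0.61 (without replicate 1 at 2 h), and did not pass with library totals or without any single 0 h or 6 h library. As a share of the gamma TPM, Pcdhgc3 was 14.9% and 15.6% at 0 h, then 16.7% and 18.2% at 2 h, then 22.6% and 25.1% at 6 h.

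An antisense gene model lies over the start of Pcdhgc3. BC037039 (minus strand, 37805718 to 37807922) covers 1559 exon bases of Pcdhgc3 on the opposite strand. Its normalized counts were 60.4 and 69.1 at 0 h, then 44.9 and 93.0 at 2 h, then 187 and 154 at 6 h. BC037039 rose at 6 h against 0 h (log2 fold change 1.4 ± 0.39, adjusted p = 0.00122), to a level far below that of Pcdhgc3, and the call was lost without replicate 1 at 6 h. The libraries were stranded, but the strand setting of the counting is not given in the sources used here, and the part of either gene's reads in the other's count was not tested.

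Pcdhac2 (37143503 to 37187657), the C-type isoform needed for the spacing of serotonergic axons, was the most abundant alpha member. Its normalized counts were 3510 and 3285 at 0 h, then 3767 and 3248 at 2 h, then 4457 and 4621 at 6 h. Both 6 h libraries were above all others. Pcdhac2 rose at 6 h against 0 h by 0.42 ± 0.12 (adjusted p = 0.00234) and against 2 h by 0.37 ± 0.12 (adjusted p = 0.00755), and its difference at 2 h against 0 h was 0.05 ± 0.12. As a share of the alpha TPM it was 31.2% and 30.8% at 0 h, then 29% and 27.7% at 2 h, then 35.7% and 36.5% at 6 h. The first rise did not pass with library totals (0.17, adjusted p = 0.227). Neither rise passed with any single 0 h or 6 h library left out, where the first kept a size of 0.37 to 0.47 with fewer libraries.

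Pcdhac1 (37090013 to 37187657) was far scarcer. Its normalized counts were 106 and 103 at 0 h, then 90.9 and 76.5 at 2 h, then 162 and 167 at 6 h, and the 3 groups did not overlap. The value at 2 h against 0 h was -0.32 ± 0.27 (adjusted p = 0.446). Pcdhac1 rose at 6 h against 0 h by 0.66 ± 0.26 (adjusted p = 0.0252) and against 2 h by 0.97 ± 0.26 (adjusted p = 0.000817). The first of these passed in 4 of 14 alternatives and not with any library left out, where its size was 0.63 to 0.68, and the second passed in 12 of 14, failing without either 6 h library. Without replicate 1 at 2 h Pcdhac1 passed the 2-fold rule too (log2 fold change 1.11).

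Pcdhgc5 (37819513 to 37841873), an isoform of the more mature brain known to bind GABA-A receptors, went the other way. Its normalized counts were 312 and 288 at 0 h, then 306 and 320 at 2 h, then 223 and 173 at 6 h, with both 6 h libraries below the rest. Pcdhgc5 fell by 0.60 ± 0.21 on the log2 scale at 6 h against 0 h (adjusted p = 0.0112) and by 0.66 ± 0.21 against 2 h (adjusted p = 0.00507). The first fall did not pass after GC correction or without replicate 1 or replicate 2 at 0 h or replicate 2 at 6 h. The second did not pass without replicate 2 at 2 h or at 6 h. Its 444-, 593- and 5777-base transcripts beside the 4741-base full-length form leave its effective length variable, at 3458 to 4720 bases among libraries.

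Pcdhgc4 (37815079 to 37841873), the gamma isoform known to be needed for the survival of neurons, was the most abundant member by mean TPM over the 6 libraries, but not at 6 h, where the mean share of the gamma TPM was 23.8% for Pcdhgc3 and 21.4% for Pcdhgc4. Its normalized counts were 4866 and 4879 at 0 h, then 4941 and 5946 at 2 h, then 4553 and 3827 at 6 h. Both 6 h libraries were below those at 0 h and 2 h, and the 2 h replicates differed more than the 0 h ones. Pcdhgc4 fell at 6 h against 2 h (-0.38 ± 0.15, adjusted p = 0.0268), and gave 0.16 ± 0.15 at 2 h and -0.22 ± 0.15 at 6 h against 0 h (adjusted p = 0.5 and 0.235). With a library left out these values ranged from -0.51 (without replicate 1 at 6 h) to -0.22 (without replicate 2 at 2 h), from 0.0026 (without replicate 2 at 2 h) to 0.28 (without replicate 1 at 2 h), and from -0.35 (without replicate 1 at 6 h) to -0.098 (without replicate 2 at 6 h). In TPM it was 92.6 and 92.9 at 0 h, then 89.2 and 111 at 2 h, then 93.0 and 77.0 at 6 h. The 6 h libraries lay on both sides of the 0 h TPM values, and with the effective length as an offset the 6 h difference from 0 h became 0.028. The fall against 2 h did not pass with that offset or without either 0 h library, replicate 2 at 2 h or replicate 2 at 6 h.

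**Figure D3:**
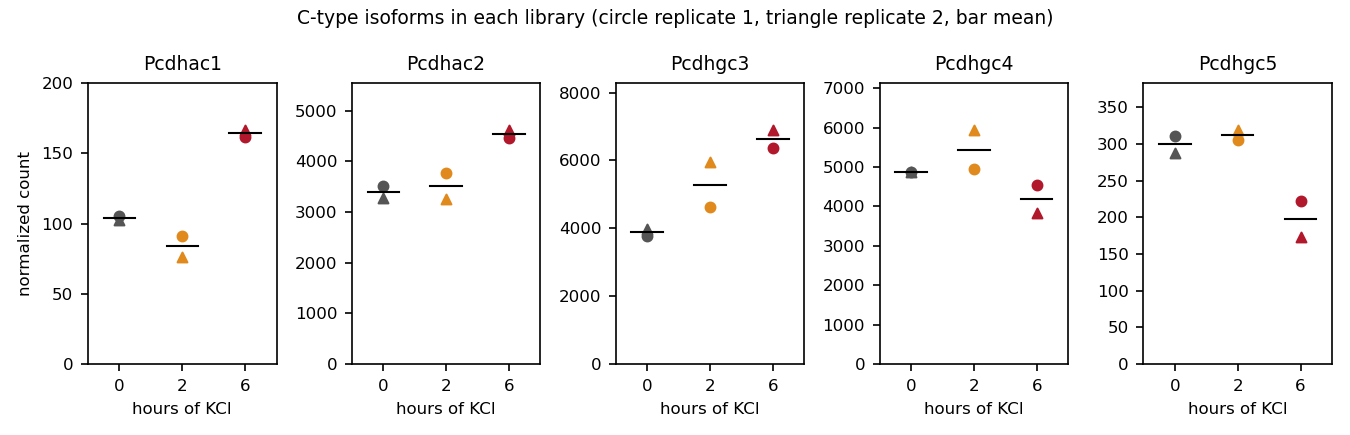
Normalized counts (expected counts divided by size factors) of the 5 C-type isoforms at 0, 2 and 6 h of KCl, with circles for replicate 1, triangles for replicate 2 and a bar at the mean; each panel starts at 0 and has its own scale. Pcdhgc3 goes from 3776 and 3989 to 6375 and 6903, Pcdhac1 and Pcdhac2 are highest at 6 h, and Pcdhgc5 is lowest at 6 h.

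Effective length, the number of positions a fragment can start from averaged over the transcripts RSEM assigned, changed for Pcdhgc4. It was 3704 and 3728 bases at 0 h, then 3418 and 3359 bases at 2 h, then 3015 and 3117 bases at 6 h, so the groups did not overlap and the later libraries were shorter. The log2 ratio was -0.28 ± 0.02 at 6 h against 0 h (limma, adjusted p = 0.0448), and Pcdhgc4 was the only member of the 53 tested that was called (adjusted p no higher than 0.05 and a log2 ratio of at least 0.2 in size), beside 0.525% of the 11233 genes tested. The ratio stayed between -0.30 and -0.25 in 9 alternatives, but the call held in 1 of them (only genes whose mean count reached 500) and was lost without any single library. The Pcdhgc4 model has a full-length transcript of 5024 bases, a 3100-base retained intron and a 2272-base transcript made of a 153-base first exon and the 2119 constant bases, so reads in the constant exons can be assigned to the short form. In the other comparisons, 2 h against 0 h and 6 h against 2 h, no member was called for effective length (0.0356% and 0.116% of all genes). There 2 and 4 of the 53 members had an unadjusted p under 0.05, a threshold for which no share of all genes is given.

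Pcdhb8, named after its values were seen, had the largest difference in effective length that was not called. It was 1794 and 1668 bases at 0 h, then 2327 and 2281 bases at 2 h, then 2371 and 2385 bases at 6 h, with both 0 h libraries shortest. The log2 ratio was 0.41 at 2 h (adjusted p = 0.135) and 0.46 at 6 h against 0 h (adjusted p = 0.0538). Its model has a single-exon transcript of 3334 bases and a spliced one of 462 bases. Its TPM was 6.35 and 7.21 at 0 h, then 5.38 and 5.10 at 2 h, then 4.22 and 4.27 at 6 h, while its log2 fold change in counts was -0.03 ± 0.22 at 6 h. In TPM the 3 groups did not overlap, while in counts 0 h and 6 h overlapped and both 2 h libraries (203 and 185 normalized counts) lay above them, without passing the test. The TPM of Pcdhb8 is divided by a length that differs among libraries. Among the tested members for which the deposited tables list a single transcript, log2 length ratios were at most 0.00697 in size.

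The alternate alpha isoforms gave no call. Of the 12, 11 had a positive log2 fold change at 2 h against 0 h with a median of 0.23, none passed, and 10 of 12 had a negative one at 6 h against 2 h with a median of -0.16. Without replicate 1 at 2 h these medians were 0.14 and -0.05, the latter with 8 of 12 negative. Under library totals the 2 h median was 0.06 with 7 positive. Over all genes tested 8637 of 16840 were positive at 2 h against 0 h and 8255 of 16404 were negative at 6 h against 2 h. Isoforms with shared exons share reads, so their signs are not independent. Pcdha4, the most abundant alternate alpha isoform, had 1084 and 1013 normalized counts at 0 h, then 1299 and 1205 at 2 h, then 1106 and 1011 at 6 h. The 2 h libraries were the highest, and the log2 fold changes were 0.26 ± 0.13 at 2 h (adjusted p = 0.139) and 0.01 ± 0.13 at 6 h against 0 h (adjusted p = 0.945). Pcdha6 had 838 and 868 at 0 h, then 842 and 940 at 2 h, then 804 and 751 at 6 h (-0.13 ± 0.14 at 6 h against 0 h, adjusted p = 0.451). That difference ranged from -0.38 to -0.073 in 14 alternatives and passed only with library totals. After a correction for GC content Pcdha2, Pcdha4, Pcdha5 and Pcdha12 passed at 2 h, with Pcdhgb5, Pcdhga11 and Pcdhgc3, which makes 7 members in place of 1.

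The beta members had the least count depth, and the 2 h libraries disagreed on them. At 2 h 16 of 22 beta members were higher in replicate 1 than in replicate 2, with a median log2 ratio of 0.24, whereas 19 of the 22 gamma members were higher in replicate 2, with a median log2 ratio of replicate 1 to replicate 2 of -0.22. The medians were 0.11 and -0.01 at 0 h and -0.08 and 0.01 at 6 h. The GC content of the annotated transcripts, at a median of 46.6% for beta, 47.7% for alpha and 52.5% for gamma members, moved with this split. With GC-corrected counts the 2 h medians became -0.07 for beta and -0.10 for gamma. Pcdhb19, named after its values were seen, had the largest gap of a beta member in that direction, with 632 and 343 normalized counts at 2 h beside 571 and 459 at 0 h.

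**Figure D4:**
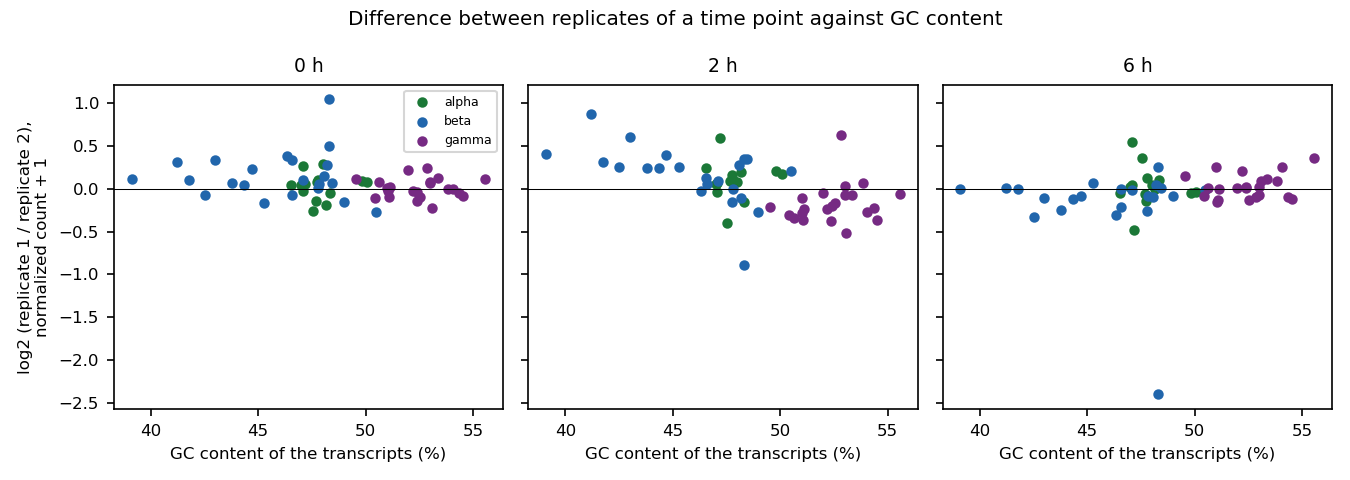
Log2 ratio of replicate 1 to replicate 2 (normalized count + 1) within each time point, against the GC content (%) of the gene's annotated transcripts, for the 58 members coloured by cluster. At 2 h the beta members with low GC content lie mostly above 0 and the gamma members mostly below, at medians of 0.24 and -0.22, and the far point at 6 h is Pcdhb1.

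Against 0 h, 17 of 22 beta members at 6 h had a positive log2 fold change, with a median of 0.26, which was 0.17 without replicate 2 at 0 h, and 0.02 with 12 of 22 positive under library totals. With the size factors 8643 of 17277 genes tested were positive at 6 h against 0 h. Pcdhb10, Pcdhb17 and Pcdhb22 passed, and these are named because they passed. Pcdhb10 had 130 and 124 normalized counts at 0 h, then 131 and 102 at 2 h, then 200.1 and 199 at 6 h. Pcdhb10 rose by 0.65 ± 0.24 against 0 h (adjusted p = 0.0185) and 0.77 ± 0.25 against 2 h (adjusted p = 0.00536). Pcdhb22 had 642 and 577 at 0 h, then 673 and 554 at 2 h, then 814 and 870 at 6 h, and it rose by 0.47 ± 0.16 against 0 h (adjusted p = 0.0119) and 0.46 ± 0.16 against 2 h (adjusted p = 0.0146). Pcdhb17 rose against 0 h by 0.38 ± 0.16 (adjusted p = 0.0437), and Pcdhb14 rose against 2 h by 0.57 ± 0.23 (adjusted p = 0.0286). The Pcdhb14 value was 0.09 after GC correction and did not pass without replicate 2 at 2 h. The rises of Pcdhb10, Pcdhb17 and Pcdhb22 against 0 h did not pass with library totals or with any single 0 h or 6 h library left out. Their sizes with a library left out were 0.62 to 0.69, 0.32 to 0.44 and 0.39 to 0.55. That of Pcdhb17 passed in 3 of 14 alternatives, against 8 for Pcdhb10 and 9 for Pcdhb22. Against 2 h the rises of Pcdhb10, Pcdhb14 and Pcdhb22 did not pass without replicate 2 at 2 h or either 6 h library. Those of Pcdhb14 and Pcdhb22 also did not pass without either 0 h library.

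The most abundant beta members did not pass. Pcdhb9 had 505 and 485 normalized counts at 0 h, then 511 and 512 at 2 h, then 492 and 521 at 6 h, a range that overlaps at 0 h and 6 h, with a log2 fold change of 0.03 ± 0.14 at 6 h and a 95% interval of -0.25 to 0.32. Pcdhb7 had 418 and 389 at 0 h and 472 and 478 at 6 h (0.24 ± 0.15, adjusted p = 0.211). Pcdhb20 had 419 and 356 at 0 h and 480 and 511 at 6 h (0.36 ± 0.20, adjusted p = 0.146). The 6 h values of Pcdhb7 and Pcdhb20 lay above those at 0 h in both libraries.

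Of the 19 alternate gamma isoforms 18 had a negative log2 fold change at 6 h against 2 h, and 7 passed the test. Over all genes tested 8255 of 16404 were negative in that comparison, and isoforms with shared exons do not give independent signs. All 12 Pcdhga members were among the negative ones, with a median of -0.29, and 6 of them fell: Pcdhga1, Pcdhga2, Pcdhga6, Pcdhga7, Pcdhga9 and Pcdhga12. Of the 7 Pcdhgb members 6 were negative, with a median of -0.14 (-0.03 without replicate 2 at 2 h), and Pcdhgb4 fell. Together with Pcdhgc4 and Pcdhgc5 these were all 9 members lower at 6 h against 2 h, and 21.2% of all genes tested were lower at that adjusted p. Under library totals all 12 Pcdhga members stayed negative (median -0.37) and after GC correction 10 of 12 did (median -0.21), and without replicate 2 at 2 h 8 of 12 were negative (median -0.20).

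The fall of Pcdhga6 passed in the most alternatives. Its normalized counts were 966 and 957 at 0 h, then 1041 and 1118 at 2 h, then 842 and 708 at 6 h. Both 6 h libraries were below the other 4. The log2 fold change was -0.48 ± 0.15 at 6 h against 2 h (adjusted p = 0.0035), passed in 13 of 14 alternatives and was lost without replicate 2 at 6 h. Pcdhga7 had 1150 and 1137 at 0 h, then 1139 and 1342 at 2 h, then 927 and 930 at 6 h (-0.42 ± 0.14 at 6 h against 2 h, adjusted p = 0.0073). Against 0 h both missed the threshold, at -0.31 ± 0.15 (adjusted p = 0.0697) and -0.30 ± 0.14 (adjusted p = 0.0631). The other 5 alternate gamma isoforms that passed had log2 fold changes of -0.32 to -0.46 with adjusted p of 0.023 to 0.0462. Without replicate 2 at 2 h the values of Pcdhga1, Pcdhga7, Pcdhga9, Pcdhga12 and Pcdhgb4 were -0.23, -0.28, -0.24, -0.21 and -0.30. Without replicate 2 at 2 h only Pcdhga6 of the 9 still passed, without replicate 2 at 6 h none did, without replicate 1 at 6 h Pcdhga6, Pcdhgc4 and Pcdhgc5 did, and without either 0 h library Pcdhga6 and Pcdhgc5 did.

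Pcdhga11, the most abundant alternate gamma isoform, had 2568 and 2746 normalized counts at 0 h, then 2965 and 3324 at 2 h, then 2937 and 3228 at 6 h, with 0 h lowest. The log2 fold changes against 0 h were 0.24 ± 0.12 at 2 h (adjusted p = 0.146) and 0.21 ± 0.12 at 6 h (adjusted p = 0.155). As a share of the gamma TPM it was 10.3% on average at 0 h and 10.9% at 6 h. Summed over the 19 alternate gamma isoforms the level was 248 and 254 TPM at 0 h, then 231 and 268 TPM at 2 h, then 212 and 217 TPM at 6 h, while the 5 C-type isoforms summed to 204 and 206 TPM at 0 h, then 202 and 240 TPM at 2 h, then 238 and 233 TPM at 6 h. In TPM both 6 h alternate gamma sums were below and both 6 h sums of the C-type isoforms of alpha and gamma were above those at 0 h. In normalized counts the alternate gamma sums were also lower at 6 h (15160 and 15234) than at 0 h (15578 and 15773). Those of all 53 alternate isoforms were higher, at 28202.5 and 27610.2 at 0 h and 28519.8 and 28928.3 at 6 h.

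Nonclustered protocadherins, which are single genes outside the 3 clusters, moved much more. Of 12 such genes 1 was called higher at 2 h against 0 h and 5 at 6 h, none lower, beside 3.62% and 9.1% of all genes called higher. Without the fold threshold 10 rose and 1 fell at 6 h, beside 23.7% and 21.7% of all genes, and the median log2 fold change was 0.88. Pcdh8, an activity-regulated protocadherin that takes N-cadherin off the membrane, had 1007 and 941 normalized counts at 0 h, then 3756 and 3601 at 2 h, then 3868 and 3794 at 6 h (log2 fold changes 1.92 ± 0.11 and 1.98 ± 0.11 against 0 h, adjusted p = 1.99e-69 and 7.8e-74). Pcdh20 had 499.8 and 439.9 at 0 h, then 531 and 428 at 2 h, then 2110 and 2154 at 6 h (2.18 ± 0.16 at 6 h). Pcdh7, Pcdh17 and Pcdh9 rose at 6 h by 1.69 ± 0.24, 1.66 ± 0.18 and 1.55 ± 0.13. Pcdh8 had most of its rise by 2 h, whereas Pcdh20, Pcdh7, Pcdh17 and Pcdh9 did not pass at 2 h against 0 h. Pcdh1 fell by 0.84 ± 0.11 at 6 h and Pcdh12 was near 0 (at most 0.16 TPM). In summed TPM the 12 genes were at 335 and 323 at 0 h and 618 and 634 at 6 h.

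**Figure D5:**
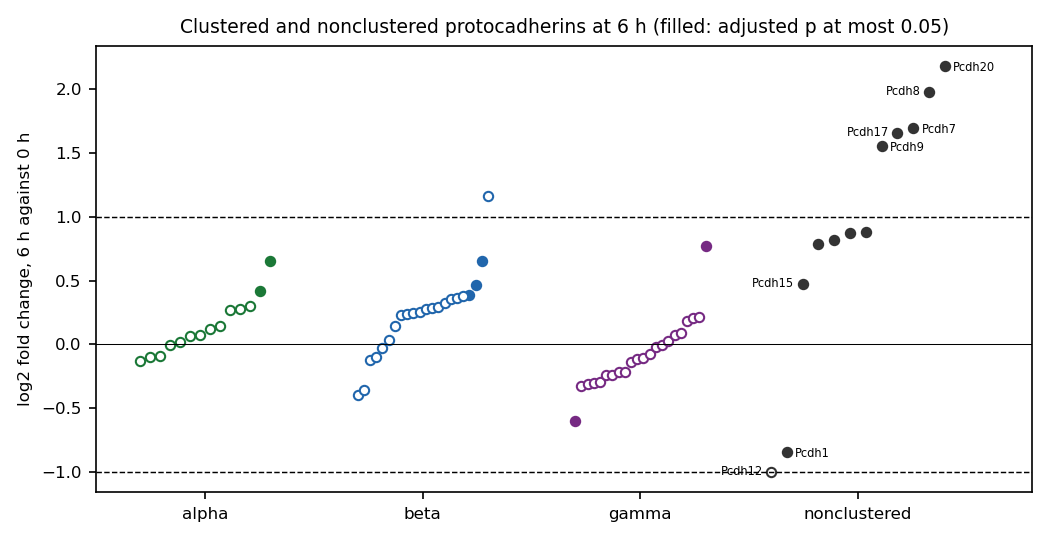
DESeq2 log2 fold change at 6 h against 0 h of the alpha, beta and gamma members and of 12 nonclustered protocadherins, each group sorted by value; filled points passed an adjusted p of 0.05, dashed lines mark 2-fold, and 4 nonclustered genes between 0.6 and 1 carry no name. Of the nonclustered genes 5 lie above 2-fold, up to 2.18 for Pcdh20, while the only clustered point above the line is the low-count Pcdhb1, which did not pass.

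Classical cadherins, calcium-dependent adhesion proteins of synapses, are given for comparison, beside 9.1% of all genes called higher and 10.2% called lower at 6 h against 0 h. Against 0 h, 1 of 18 was called higher at 6 h (Cdh18, 1.72 ± 0.20) and 2 lower (Cdh22, -1.19 ± 0.31, and the scarce Cdh15, -1.77 ± 0.54). Cdh9 was called lower at 2 h against 0 h (-1.04 ± 0.24, beside 5.94% of all genes) and higher at 6 h against 2 h (1.31 ± 0.24). From 2 h to 6 h 4 were called higher (Cdh6, Cdh9, Cdh10 and Cdh18) and 2 lower (Cdh15 and Cdh22), beside 10.1% and 8.02% of all genes. The Cdh22 call at 6 h and the Cdh9 call at 2 h were lost without replicate 1 at 0 h (adjusted p = 0.0517 and 0.0563), as was the Cdh15 call at 6 h against 0 h, which was also lost without replicate 2 at 6 h. Cdh9 was also under 2-fold without replicate 2 at 2 h (-0.81) at 2 h against 0 h, and in both of its comparisons after GC correction (-0.91 and 0.94). The Cdh15 call against 2 h was lost without replicate 2 at 2 h or replicate 2 at 6 h.

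CTCF and cohesin, which bring protocadherin promoters to their enhancers, were described by 11 genes. At 6 h 8 of them rose against 0 h and 2 fell, each by less than 2-fold, beside 23.7% and 21.7% of all genes, with a median log2 fold change of 0.51 that was 0.04 at 2 h. Ctcf had 2064 and 2112 normalized counts at 0 h, then 2010 and 1800 at 2 h, then 2701 and 2622 at 6 h. Ctcf rose by 0.35 ± 0.11 at 6 h against 0 h (adjusted p = 0.00644), and Rad21, the cohesin subunit that is cleaved at division, rose by 0.43 ± 0.09 (adjusted p = 2.7e-05). The range at 6 h ran from -0.59 ± 0.21 for Pds5b, a regulator of cohesin, to 0.93 ± 0.26 for Wapl, which releases cohesin.

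Among 8 genes of DNA methylation and silencing, 1 was called, beside 9.55% of all genes at 2 h against 0 h and 18.1% at 6 h against 2 h. Without the fold threshold 1 rose and 4 fell at 2 h against 0 h, beside 12.3% and 14.2% of all genes, and 1 rose and 3 fell at 6 h against 0 h, beside 23.7% and 21.7%. Dnmt3b, the methyltransferase known to set methylation at clustered protocadherin promoters, had 44.4 and 36.2 normalized counts at 0 h, then 6.99 and 3.10 at 2 h, then 17.1 and 20.4 at 6 h. The 2 h libraries were lowest. Dnmt3b fell at 2 h against 0 h (-2.99 ± 0.71, adjusted p = 0.00021), a call lost without replicate 1 at 0 h, and rose at 6 h against 2 h (1.89 ± 0.73, adjusted p = 0.0243), a call that held in 1 of the 6 fits that left out a library. Smchd1, which represses clustered protocadherins in other tissues, fell at 6 h against 0 h by 0.52 ± 0.17 (adjusted p = 0.0065).

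Partners and effectors of the protocadherin cytoplasmic domains were described by 18 genes. Ptk2b and Ret were called lower at 6 h, both against 0 h and against 2 h, beside 10.2% and 8.02% of all genes. Without the fold threshold 3 rose and 4 fell at 6 h against 0 h, beside 23.7% and 21.7% of all genes, with a median log2 fold change of 0.08. Ptk2b (Pyk2), a kinase bound by the shared alpha and gamma cytoplasmic tails, had 999.6 and 1039 normalized counts at 0 h, then 981 and 1058 at 2 h, then 520.0 and 494 at 6 h (-1.01 ± 0.13 at 6 h against 0 h, adjusted p = 4.81e-13). Ret, a receptor kinase that stabilises alpha and gamma protocadherins, had 183 and 193 at 0 h, then 152 and 205 at 2 h, then 73.8 and 47.3 at 6 h (-1.63 ± 0.32, adjusted p = 1.48e-06). Both genes kept an adjusted p under 0.05 in all 14 alternatives, but the size of the Ptk2b fall was under 2-fold after GC correction (-0.91) and without replicate 2 at 0 h (-0.98) or replicate 2 at 6 h (-0.97), and against 2 h also without replicate 2 at 2 h (-0.94).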

How the data were processed

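Poly(A) RNA of the 6 samples was sequenced as stranded 150-base read pairs. According to the study's methods the authors trimmed the reads and quantified genes on mm10. The submitters' processing notes name RSEM 1.3.0 and Bowtie2 2.2.9, while the annotation release and strand setting are not given in the sources used here. The authors deposited per gene the expected counts (estimated counts), TPM and effective length in bases. Gene IDs were matched to GENCODE M21 (42462 of 43432 had a symbol), and GC content came from its transcripts.

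Expected counts were rounded and fitted across all genes of the 6 libraries with DESeq2 1.42.0 (R 4.3.3), by group, with median-of-ratios size factors, Wald tests, unshrunken log2 fold changes and Benjamini-Hochberg adjustment. edgeR 4.0.16 was an alternative, and limma 3.58.1 tested log2 effective length for genes whose mean count reached 100. SE is the standard error of a log2 fold change. The scripts were tested on simulated data. The text names the 5 C-type isoforms, the 3 most abundant members of each cluster by TPM, members called in a comparison or for effective length, and up to 3 called genes per list and comparison, and further members and genes named after their values were seen. The members and lists were chosen with earlier results of these data known.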

Additional observations from a re-analysis of the deposited data

Results flagged for a closer look

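Gene models inside the span of the 3 clusters that are no members were not part of the member comparisons, and 2 of them passed an adjusted p of 0.05 (DESeq2) with a level at 6 h more than 2-fold above that at 0 h. BC037039, the antisense model over the start of Pcdhgc3, had a log2 fold change of 1.4 at 6 h against 0 h. The value stayed between 1.15 and 1.56 in 14 alternatives and passed in 13, being lost without replicate 1 at 6 h (adjusted p = 0.082). Taf7, a subunit of the general transcription factor TFIID encoded on the minus strand between the beta and gamma clusters (37640491 to 37644204), had 423 and 432 normalized counts at 0 h, then 790 and 760 at 2 h, then 911 and 856 at 6 h. Its log2 fold change was 0.86 at 2 h and 1.05 at 6 h against 0 h (DESeq2, adjusted p = 5.49e-09 and 1.36e-13), and 0.75 at 6 h after GC correction. Both were chosen after their values were seen. In 9.1% of all genes tested the 6 h level was called higher, and no cause was tested.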

How the results depend on the processing

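Pcdhgc3 at 6 h against 0 h passed under all 14 alternatives, and no member was called past 2-fold under any alternative except without replicate 1 at 2 h (Pcdhac1 at 6 h against 2 h, so that count ranged from 0 to 1). Counts at an adjusted p of 0.05 moved more, and the cause was not tested. Members higher at 2 h against 0 h numbered 1 in the main analysis, 0 with library totals, 3 with genes of a mean count of at least 10, 7 with GC correction and 3 with GC correction and the replicate block, and 0 to 5 with a library left out, with 0 to 2 lower. At 6 h against 0 h the 6 higher became 1 with library totals and 1 to 6 with a library left out. The 1 lower became 3 with edgeR, 3 with TMM factors, 12 with library totals, 2 with the mean count filter, 2 with GC correction, 0 with GC correction and the block, 2 with the effective length offset and 0 to 4 with a library left out. At 6 h against 2 h the 9 lower became 14 with library totals and 0 to 11 with a library left out, and the 5 higher became 0 to 9. The effective length call at 6 h was lost with a mean count of at least 20, with the replicate block and with any library left out (0 members in each).

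The replicate numbers were not taken as pairs: across genes, the deviations of same-numbered libraries from their group means correlated at 0.28, 0.00 and 0.15 in the 3 comparisons. With the replicate block 1 member rose at 2 h against 0 h, and 4 rose and 1 fell at 6 h, where Pcdhac1 and Pcdhb17 were lost. At 6 h against 2 h 7 rose and 6 fell, with Pcdhga1, Pcdhga2 and Pcdhga9 lost and Pcdhgc3 and Pcdhb16 gained. Alternatives for members named because they passed, for Pcdhb8, BC037039 and Taf7 were added after seeing the data. By list, 3 classical cadherins were called with GC correction in place of 6, and 2 silencing genes with edgeR and 2 with library totals in place of 1. The log2 ratio of summed levels at 6 h against 0 h was -0.053 for alpha and -0.16 for gamma from expected counts scaled to library totals in place of 0.01 and -0.05 from TPM. Signs turned for small values. Pcdha4 at 6 h became -0.025 with edgeR, -0.025 with TMM, -0.23 with library totals, -0.012 with GC correction, -0.013 with GC correction and the block, -0.026 with the length offset and -0.054 to 0.078 with a library left out. Pcdhb9 at 6 h became -0.0057 with edgeR, -0.0057 with TMM, -0.21 with library totals and -0.0075 to 0.072 with a library left out. With library totals Pcdhac2 at 2 h became -0.12 (-0.075 to 0.13 with a library left out), Pcdhb7 at 6 h -0.010, Pcdhga11 at 6 h -0.032, and Pcdhgc4 and Pcdhgc5 at 2 h -0.0040 and -0.11. With the length offset Pcdhgc4 at 6 h became 0.028.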
